A study of Mus musculus with 12 samples.

Results

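Macrophages sorted from the islets of mice that overexpress vascular endothelial growth factor A (VEGF-A) in beta cells were compared with whole islets from mice of the same genotype and treatment. The comparison used the 3 Dox macrophage libraries and the 3 Dox islet libraries, 6 of the 12 libraries of the study, and all 22711 gene symbols of the expression table. All 12 libraries came from RIP-rtTA; TetO-VEGF-A mice. In this genotype the rat insulin promoter drives a doxycycline-dependent activator in beta cells, and the activator switches on the VEGF-A transgene. Dox islets were whole islets after 1 week of doxycycline (Dox). Dox macrophages were CD11b+ cells obtained by flow sorting of dispersed islets, also after 1 week of Dox. The other 6 libraries, 3 of islets without Dox and 3 of CD31+ endothelial cells sorted after 1 week of Dox, are given only as values beside a result. The labels give no age. They also do not say whether replicates are different mice or cultures, and p-values therefore cover only the spread between these samples, which may be technical.

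Macrophages are phagocytes of the innate immune system. They take up debris and pathogens, degrade them in lysosomes, present peptides on MHC class II and secrete cytokines and chemokines. Growth of macrophages depends on CSF1R, the receptor of colony-stimulating factor 1, and their gene programme depends on the transcription factor PU.1. A whole islet contains hormone-producing beta, alpha, delta and PP cells, capillary endothelium, pericytes, fibroblasts and its own macrophages. Whole Dox islets are therefore not a macrophage-free control, and each difference here is one between a sorted cell fraction and a mixture that includes the same kind of cell. In such bulk samples, fewer cells of a type and less RNA per cell cannot be told apart.

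The values are the authors' normalized signal on a linear scale with a floor of 1, and they are not stated to be corrected for gene length, so levels were compared only within a gene. The summed signal per library ranged from 19785650 to 25226447, and read depth is unknown. The Pearson correlation of log2(signal + 1) across genes was 0.918 to 0.975 within macrophages, 0.906 to 0.968 within islets and 0.307 to 0.421 between them. Of the 22711 genes, 10707 passed a filter on low values (a signal of at least 182 in at least 3 of the 6 libraries) and were tested with limma. A positive log2 difference means a higher value in macrophages. Of the genes tested, 5993 passed an adjusted p of 0.05, which is 56.0%, with 2645 higher in macrophages (24.7%) and 3348 lower (31.3%). Groups did not overlap for 6824 genes (63.7%). Errors of log2 differences are standard errors (SE) of the limma fit over 3 against 3 libraries. The median log2 difference of all tested genes was -0.12. Quantile normalization moved it to 0.06 and median ratio rescaling to 0.02. Of the tested genes, 537 reached the filter level in macrophage libraries only, and these had to be higher or near it: 522 of them were called higher. Likewise 1252 of the 1277 genes that reached it in islet libraries only were called lower. Among the 8893 genes that reached it in both groups, 2123 were called higher and 2096 lower. The library numbers of the table fall into 2 series, each with libraries of both groups, and 5988 of the 5993 called genes had the same sign in both; the sources used here do not say what the series stand for.

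The sorted fraction carried the markers of macrophages in all 3 libraries. Itgam, which encodes the CD11b antigen used for the sort, had a signal of 11409, 11397 and 11460.2 in the macrophage libraries and 438, 721 and 775 in the islet libraries. Since the sort selected on CD11b, this difference is no finding. Emr1, the gene of the macrophage surface protein F4/80, stood at 19302, 19019.5 and 23699 in the macrophage libraries and 1349, 1179 and 1009 in the islet libraries. The means were 17.7-fold and 17.5-fold apart, and no macrophage library came near an islet library. Tyrobp, an adaptor that carries signals of many myeloid receptors, had values of 10735, 8843 and 6618 in the macrophage libraries and 461, 120.2 and 139.8 in the islet libraries. C1qa, a chain of complement C1q that macrophages secrete, had values of 4189, 1713 and 2236 in the macrophage libraries and 351, 15.6 and 26.2 in the islet libraries. For both, the groups did not overlap, and islet replicate 1 was the highest of the islet libraries. The log2 differences were 4.19 ± 0.24 SE for Itgam, 4.13 ± 0.20 SE for Emr1, 5.43 ± 0.47 SE for Tyrobp and 5.54 ± 1.00 SE for C1qa, and limma's adjusted p was 2.25e-06, 1.09e-06, 1.78e-05 and 0.00129. Without islet replicate 1 the difference of C1qa was 6.89.

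Of the 23 genes listed for core macrophage identity, 23 were tested and 23 were higher in macrophages, against a background of 24.7%, with a median log2 difference of 4.44. Of these, 1 reached the filter level in macrophage libraries only and 22 in both groups. Csf1r read 48022, 38752 and 41911 in the macrophage libraries and 2228, 1368 and 1340.4 in the islet libraries (log2 difference 4.74, SE 0.24, limma adjusted p = 1.31e-06). Lyz2, the gene of the lysozyme of phagocytes, read 148656, 168111 and 148146 in the macrophage libraries and 10678, 6422 and 4022 in the islet libraries (log2 difference 4.57, SE 0.35, limma adjusted p = 8.07e-06). For both genes every macrophage library lay far above every islet library. The smallest difference of the list was that of Mertk, a receptor for the uptake of dying cells, with 9159, 8891 and 9515 in the macrophage libraries and 2083, 2594 and 2649.6 in the islet libraries (1.92 ± 0.18 SE). Mertk was also present in sorted endothelial cells, at a mean of 2957, whereas Csf1r there was 68.9 and Emr1 13.8. In islets without Dox the mean signals of Csf1r, Emr1 and Lyz2 were 689, 281 and 2042.

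**Figure D1:**
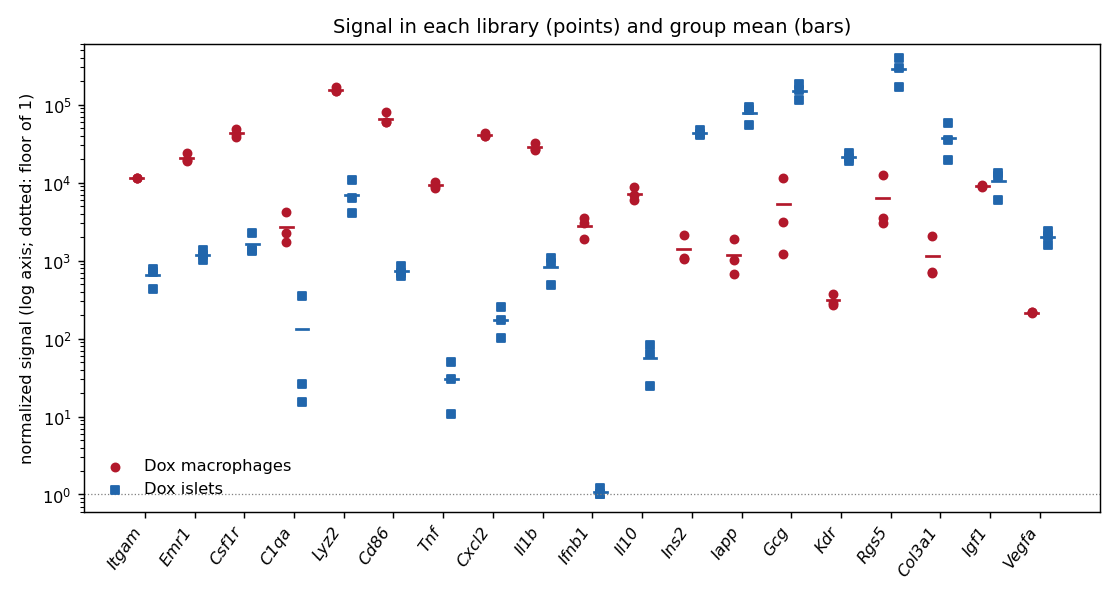
Signal (log axis) of 19 genes in the 3 Dox macrophage libraries (circles) and the 3 Dox islet libraries (squares), with group means as bars and the floor of 1 as a dotted line. The macrophage and cytokine genes on the left are higher in every macrophage library, the endocrine, endothelial, pericyte and matrix genes are higher in every islet library, and the groups overlap for Igf1.

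The largest rises included genes of cytokines, chemokines and innate sensors. By a rule that took the 12 largest differences among called genes with separate groups and a group mean of at least 1254, the rises were Ifnb1, Irg1, Tnf, Astl, Clec4e, Cxcl2, Ccl4, Nlrp3, Il10, Ccl5, Adam30 and Il12b. Only Cxcl2, Ccl4 and Nlrp3 reached the filter level in an islet library as well. The others were tested through macrophage libraries only, so the filter fixed their direction and the separation of their groups. Ifnb1 (mm9 chr4:88167929-88168698), the gene of interferon beta, read 1895, 2997 and 3497 in the macrophage libraries and 1.22, 1 and 1 in the islet libraries. It was at the floor in islet replicates 2 and 3, so its log2 difference of 10.35 depends on the added 1 and no fold is given. Tnf (chr17:35336326-35338952), the gene of tumour necrosis factor, read 8544, 10217 and 9153 in the macrophage libraries and 50.1, 30.03 and 10.8 in the islet libraries (log2 difference 8.45, SE 0.49, limma adjusted p = 2.25e-06). Cxcl2 (chr5:91332897-91334935), a neutrophil-attracting chemokine, read 39494, 43858 and 39889 in the macrophage libraries and 252, 171 and 102 in the islet libraries (log2 difference 7.96, SE 0.31, limma adjusted p = 8.56e-07). These 3 genes were abundant in each macrophage library and low in each islet library. Il10, an anti-inflammatory cytokine, was among the same leading genes at 6015, 6907 and 8721 in the macrophage libraries and 82.1, 63.6 and 24.5 in the islet libraries (7.11 ± 0.43 SE). Irg1, the gene of the enzyme that makes itaconate in activated macrophages, read 2057, 3328 and 2726 in the macrophage libraries and 16.5, 1 and 9.47 in the islet libraries (8.54 ± 0.75 SE). Nlrp3, a sensor of the inflammasome, read 39009.5, 42219 and 54157 in the macrophage libraries and 547, 171 and 287 in the islet libraries (7.21 ± 0.38 SE). Activating and dampening genes were thus both among the largest rises. The remaining ones include Clec4e, a lectin receptor for damaged cells and mycobacterial lipid (mean 2977 in macrophages and 10.9 in islets), Ccl4 (27299 and 174), Ccl5 (4195 and 36.3) and Il12b, a subunit of interleukin 12 (3242 and 33.5). Astl and Adam30 encode metalloproteases, with means of 5196 and 1453 in macrophages and 18.0 and 14.2 in islets.

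Promoter sequences of C1qc, Cxcl2, Cxcl1, Ifnb1 and Iapp are shown with the letters of factors known to act on them. Only Cxcl2 and Ifnb1 are among the largest rises, and Iapp is a beta cell gene that was lower in macrophages. The sequences are the 200 bases that end 51 bases before the RefSeq start in build GRCm38.p6. They are written 5′ to 3′ on the gene's strand, and capitals mark a match on either strand. Coordinates are C1qc chr4:136892965-136893164, minus strand; Cxcl2 chr5:90903649-90903848, plus strand; Cxcl1 chr5:90890995-90891194, plus strand; Ifnb1 chr4:88522845-88523044, minus strand; Iapp chr6:142298175-142298374, plus strand. In C1qc the capitals mark the PU.1 letters GAGGAAGT, in Cxcl2 and Cxcl1 the NF-kB letters GGG, any 2 bases, TTTCC, in Ifnb1 the symmetric NF-kB letters GGGA, any 2 bases, TTCC and in Iapp the E-box letters CAGATG.
C1qc: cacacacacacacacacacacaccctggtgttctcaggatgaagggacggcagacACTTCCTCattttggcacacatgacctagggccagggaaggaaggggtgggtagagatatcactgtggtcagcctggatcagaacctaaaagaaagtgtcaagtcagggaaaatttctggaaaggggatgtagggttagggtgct
Cxcl2: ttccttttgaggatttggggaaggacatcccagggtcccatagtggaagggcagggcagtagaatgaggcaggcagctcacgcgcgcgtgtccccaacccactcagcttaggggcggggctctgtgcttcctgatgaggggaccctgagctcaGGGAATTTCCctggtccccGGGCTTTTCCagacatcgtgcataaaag
Cxcl1: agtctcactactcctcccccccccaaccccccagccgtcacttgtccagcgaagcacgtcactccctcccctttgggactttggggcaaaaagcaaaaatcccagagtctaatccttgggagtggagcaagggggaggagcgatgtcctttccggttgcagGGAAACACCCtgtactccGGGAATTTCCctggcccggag
Ifnb1: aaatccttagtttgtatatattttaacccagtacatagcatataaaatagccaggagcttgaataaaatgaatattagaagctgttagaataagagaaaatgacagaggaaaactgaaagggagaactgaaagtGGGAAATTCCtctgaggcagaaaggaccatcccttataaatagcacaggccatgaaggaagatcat
Iapp: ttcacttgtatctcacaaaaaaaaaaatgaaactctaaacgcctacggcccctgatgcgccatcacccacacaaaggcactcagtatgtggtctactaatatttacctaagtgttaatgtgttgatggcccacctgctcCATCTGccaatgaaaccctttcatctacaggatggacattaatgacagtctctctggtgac
The genes were picked because their stretch holds a match, and they do not represent their lists. Over windows of 300 bases, the PU.1 letters stood in 3 of 20 windows of core macrophage genes and the NF-kB letters of Cxcl2 in 4 of 15 chemokine windows. CAGATG stood in 7 of 19 beta cell windows and in 7 of 20 core macrophage windows, so it did not set these lists apart. C1qc read 18555, 15296 and 14592 in the macrophage libraries and 969, 493 and 473 in the islet libraries. Cxcl1 read 2494, 2408 and 2329.6 in the macrophage libraries and 139, 134 and 171 in the islet libraries (4.03 ± 0.24 SE). Cxcl2 and Cxcl1 each hold 2 matches in this stretch.

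Most cytokine genes tested were higher, but the filter fixed the direction of most of them. Of 14 proinflammatory cytokines and enzymes, 11 were tested, 10 were higher and 1 lower, with a median of 5.41. The shares among all tested genes were 24.7% higher and 31.3% lower. Il1b, the gene of interleukin 1 beta, read 27025, 32191 and 26196 in the macrophage libraries and 1074, 489 and 944 in the islet libraries (log2 difference 5.16, SE 0.30, limma adjusted p = 2.17e-06). Il1a and Il1rn, the gene of the receptor antagonist that opposes interleukin 1, stood at 3242 and 2953 in macrophages and 51.7 and 35.5 in islets. Ptgs2, the inducible cyclooxygenase of prostaglandin synthesis, read 8745, 11418 and 9409 in the macrophage libraries and 146, 194 and 183 in the islet libraries (5.81 ± 0.22 SE). The smallest rise was that of Il6, at 239, 422 and 629.5 in the macrophage libraries and 151, 185 and 92.0 in the islet libraries (1.54 ± 0.46 SE, adjusted p = 0.0193). Il6 did not pass without macrophage replicate 2, macrophage replicate 3 or islet replicate 3 (adjusted p = 0.0574, 0.0633 and 0.072). Nos2, the inducible nitric oxide synthase often used to mark classically activated macrophages, went the other way with 42.1, 17.9 and 51.0 in the macrophage libraries and 827, 451 and 263 in the islet libraries (log2 difference -3.73, SE 0.59, limma adjusted p = 0.000568). Its groups did not overlap, and its mean in sorted endothelial cells was 1329. Of the tested genes of this list, 7 of 11 reached the filter level in macrophage libraries only. Nos2 reached it in islet libraries only, so the filter fixed its lower direction and the separation of its groups.

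Of 21 chemokine genes of the CC and CXC families, 18 were tested. There were 16 higher and 2 lower, beside 24.7% and 31.3% of all tested genes, with a median of 4.87. Of these 18, 8 reached the filter level in macrophage libraries only and 2 in islet libraries only. Ccl3, which attracts monocytes and lymphocytes, read 19682, 25214 and 24686 in the macrophage libraries and 247, 449 and 231 in the islet libraries (6.28 ± 0.28 SE). Ccl4, its close relative, read 25088, 27179 and 29628 in the macrophage libraries and 243, 214 and 65.8 in the islet libraries (7.49 ± 0.44 SE). Cxcl10, induced by interferons, read 12667, 17850.3 and 19948 in the macrophage libraries and 262, 503 and 219 in the islet libraries (5.75 ± 0.33 SE). Ccl22, a ligand of the receptor CCR4, had means of 4540.1 and 80.6, and Ccl2, the main attractant of CCR2+ monocytes, had 5125 and 317. All of these were separate between the groups. The lower genes were Cxcl12, a ligand made by stromal and endothelial cells (31.1, 8.25 and 109 in the macrophage libraries and 679, 650.0 and 649 in the islet libraries), and Cx3cl1, the membrane-bound ligand of CX3CR1 (71.4, 45.9 and 29.0 in the macrophage libraries and 452, 201 and 326 in the islet libraries). Their log2 differences were -4.37 ± 0.79 SE and -2.73 ± 0.52 SE. Both were present in sorted endothelial cells, with means of 890.3 and 524.

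All 12 of 12 chemokine and myeloid growth factor receptors tested were higher, beside 24.7% of all tested genes, with a median of 3.99. Of the 12, 3 were tested through macrophage libraries only. Ccr2, the receptor of inflammatory monocytes, read 16982, 20763 and 13725 in the macrophage libraries and 942, 1028 and 1117 in the islet libraries (log2 difference 4.04, SE 0.21, limma adjusted p = 1.32e-06). Cx3cr1, the receptor associated with resident and patrolling cells, read 9525, 9752 and 11833 in the macrophage libraries and 446, 840.0 and 819 in the islet libraries (3.93 ± 0.27 SE). Both receptors were therefore high in the same sorted fraction. Csf3r, the receptor of granulocyte colony-stimulating factor and also a neutrophil gene, had the largest difference of the list (5.90 ± 0.52 SE), followed by Ccr7 (5.73 ± 0.42 SE), a receptor that guides cells to lymph nodes. Cxcr4, the receptor of CXCL12, had the smallest (4047, 3937 and 4155 in the macrophage libraries and 1624, 663 and 640.2 in the islet libraries; 2.19 ± 0.34 SE).

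Antigen presentation genes were higher throughout. All 12 of 12 genes for MHC class II and costimulation were higher, beside 24.7% of all tested genes, with a median of 4.97. Cd74, the invariant chain that accompanies MHC class II, read 160039.7, 151402 and 130486 in the macrophage libraries and 10283, 4836 and 2761 in the islet libraries (log2 difference 4.83, SE 0.43, limma adjusted p = 1.91e-05). H2-Aa, an MHC class II alpha chain, read 116550.1, 96442 and 158301 in the macrophage libraries and 10808, 2155 and 1625 in the islet libraries. The islet libraries were uneven, with replicate 1 above the others as for C1qa. Cd86, a costimulatory ligand of T cells, read 60337, 59133 and 79637 in the macrophage libraries and 858, 699 and 635 in the islet libraries (6.50 ± 0.21 SE). Cd83, a surface marker of activated antigen-presenting cells, read 39998, 44469 and 47376 in the macrophage libraries and 929, 388 and 469.8 in the islet libraries (6.30 ± 0.31 SE). These were the largest differences of the list. Cd40 had the smallest (2.98 ± 0.21 SE). The list held 2.13 to 2.51% of the summed signal of the macrophage libraries and 0.172, 0.0537 and 0.0388% of that of islet replicates 1, 2 and 3, where replicate 1 again stood highest. The 3 against 3 libraries do not overlap, and the two-sided exact permutation p of 0.1 is the smallest that this design allows.

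**Figure D2:**
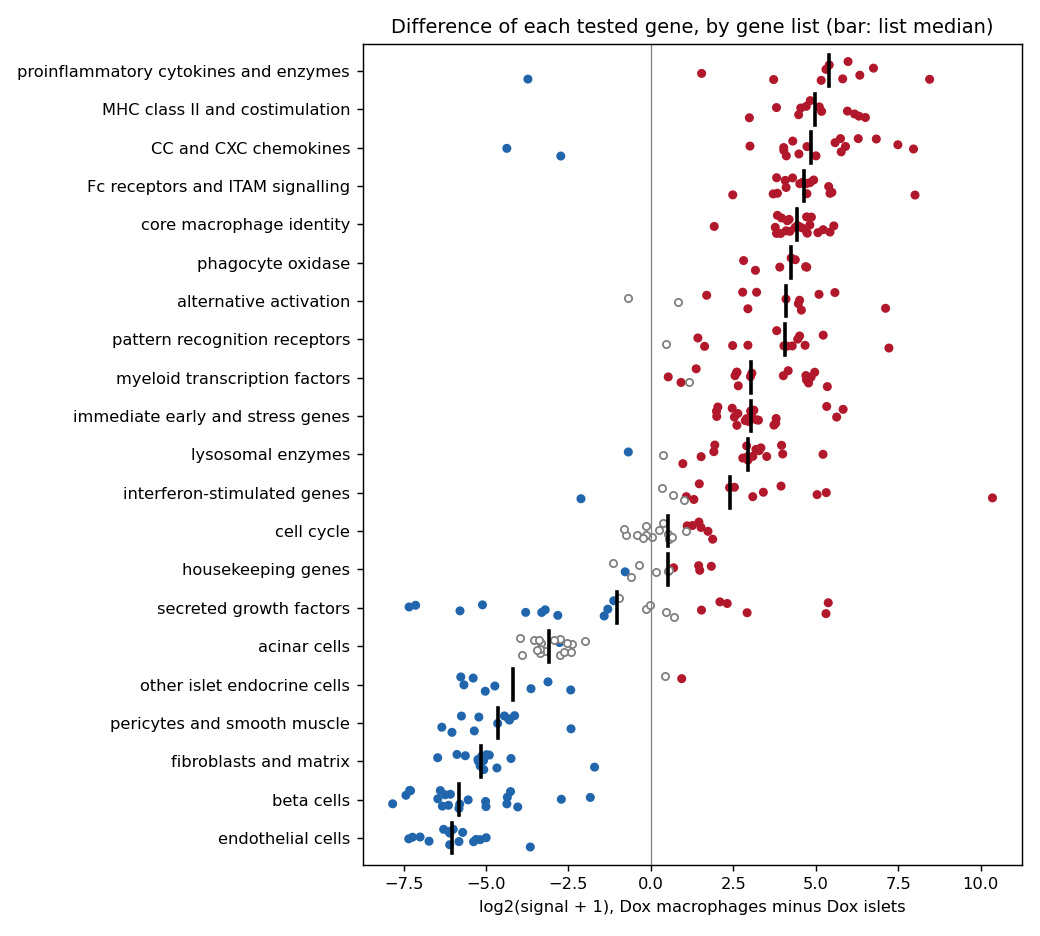
Log2 difference of each tested gene (points), grouped in 21 of the gene lists, with the list median as a black bar. Filled red points passed the test with a higher value in macrophages, filled blue points with a lower value, and open points did not pass. The medians run from 5.41 for proinflammatory cytokines and enzymes to -6.05 for endothelial genes.

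The transcription factors of the myeloid lineage were mostly higher. Of 19 listed, 18 were tested, 17 were higher and 1, Nr1h3, did not pass, beside 24.7% higher among all tested genes. Of the 18, 6 reached the filter level in macrophage libraries only. Sfpi1, the gene of PU.1, read 3097, 2374 and 2866 in the macrophage libraries and 203, 53.9 and 90.4 in the islet libraries (log2 difference 4.78, SE 0.45, limma adjusted p = 2.64e-05). Spic, a relative of PU.1 that marks macrophages of iron recycling, read 3045, 3157 and 3629 in the macrophage libraries and 83.8, 63.8 and 93.3 in the islet libraries (5.35 ± 0.27 SE). Irf4 and Irf5, regulators of macrophage polarisation, had log2 differences of 4.70 and 4.72. Several factors shared with other islet cells differed less: Zeb2 by 1.37 and Bhlhe40 by 0.91. Nr1h3, the liver X receptor alpha of cholesterol export, read 331, 224 and 306 in the macrophage libraries and 181, 69.7 and 159.8 in the islet libraries (adjusted p = 0.0581). It passed as higher with quantile normalization (1.65 on the log2 scale, 0.00934) and median ratio rescaling (0.0408), with added constants of 10 and 50 (0.0478 and 0.0342), with all 4 groups in the fit (0.0448) and without islet replicate 1 (0.0267). The 7 of 7 phagocyte oxidase genes tested were higher, 1 of them tested through macrophage libraries only. Cybb, the catalytic subunit of the complex that makes superoxide, read 60142, 64112 and 69161 in the macrophage libraries and 2190.0, 2849.6 and 2314 in the islet libraries (log2 difference 4.72, SE 0.20, limma adjusted p = 8.56e-07).

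Receptors that read microbial products and antibodies were higher almost throughout. Of 15 pattern recognition receptors, 14 were tested, 13 were higher and 1, Ly96, did not pass, beside 24.7% higher among all tested genes. Of the 14, 2 reached the filter level in macrophage libraries only. Cd14, the co-receptor for bacterial lipopolysaccharide, read 6889, 6279.7 and 7399 in the macrophage libraries and 256, 146 and 162 in the islet libraries (log2 difference 5.22, SE 0.26, limma adjusted p = 1.21e-06). Tlr2 read 14659, 13740.4 and 16705 in the macrophage libraries and 658, 705 and 615 in the islet libraries (4.51 ± 0.18 SE), while Tlr4, the lipopolysaccharide receptor, read 5118, 4711 and 4835 in the macrophage libraries and 2061, 1941 and 1509.8 in the islet libraries (1.42 ± 0.19 SE). The difference of Tlr4 was the smaller of the pair, and sorted endothelial cells had a mean Tlr4 of 2447 against 274 for Tlr2. Ly96, the partner of TLR4, read 541, 553 and 587 in the macrophage libraries and 257, 503 and 528 in the islet libraries (adjusted p = 0.275) and passed as higher with the GC trend removed (0.905, 0.0109). Of 19 Fc receptors, lectin receptors and components of ITAM signalling, 18 were tested and all 18 were higher, from 2.48 for the kinase gene Lyn to 8.01 for Clec4e. Of these, 6 reached the filter level in macrophage libraries only, Clec4e among them, and 12 in both groups.

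Most lysosomal genes were higher. All 19 listed were tested, with 17 higher, 1 lower and 1 not called, and a median of 2.94. The shares among all tested genes were 24.7% higher and 31.3% lower. Ctss, the cathepsin that trims the invariant chain, read 74335, 77803 and 78355 in the macrophage libraries and 5369, 5894 and 3797 in the islet libraries (log2 difference 3.96, SE 0.23, limma adjusted p = 2.3e-06). Acp5, a lysosomal acid phosphatase, had the largest difference (5.22 ± 0.65 SE). It alone of the 19 reached the filter level in macrophage libraries only, which fixed its direction and the separation of its groups. Ctsl, a cathepsin found in many cells, was lower in macrophages with 2835, 3071 and 2589.6 in the macrophage libraries and 3536, 5421 and 4901 in the islet libraries (-0.69 ± 0.21 SE, adjusted p = 0.022). It did not pass when any 1 of the libraries other than islet replicate 1 was left out (adjusted p = 0.0512 to 0.0777), and with the GC trend removed its difference was -0.325 (0.0834). Lamp2, a lysosomal membrane protein, read 19275, 20397 and 18657 in the macrophage libraries and 11591, 18475 and 16510.4 in the islet libraries and did not pass (adjusted p = 0.224), but passed as higher with the GC trend removed (0.792, 0.00136). Among 10 genes of iron and haem handling, 9 were higher and 1 lower. Hmox1, which degrades haem, read 17467, 13014 and 11652 in the macrophage libraries and 1394, 782 and 768 in the islet libraries (3.87 ± 0.28 SE), and Slc40a1, the iron exporter, differed by 2.57 ± 0.25 SE. The lower one was Tfrc, the transferrin receptor of iron uptake, with 506, 763 and 689 in the macrophage libraries and 1240.4, 1470.4 and 1439 in the islet libraries (-1.10 ± 0.24 SE).

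Genes used to describe alternatively activated macrophages were also present. Of 17 listed, 13 were tested, 11 were higher and 2 did not pass, beside 24.7% higher among all tested genes, with a median of 4.09. Of the 13, 6 reached the filter level in macrophage libraries only, which fixes their direction, and 7 in both groups. Mrc1, the mannose receptor CD206, read 38535, 38084 and 38521 in the macrophage libraries and 1515, 1899.7 and 1673 in the islet libraries (log2 difference 4.51, SE 0.18, limma adjusted p = 8.56e-07). Its macrophage values lay within a narrow range, and their mean was 22.6 times the islet mean. Cd163, a scavenger receptor for haemoglobin, read 3948, 2739 and 4228 in the macrophage libraries and 320.1, 533 and 821 in the islet libraries (2.78 ± 0.35 SE), and Mgl2, a galactose lectin, differed by 5.58 ± 0.68 SE. Arg1, an enzyme often used as a marker of this state, read 296, 242 and 468 in the macrophage libraries and 219, 111 and 252 in the islet libraries; Lyve1, a hyaluronan receptor of some tissue macrophages and of lymphatic vessels, read 498, 201 and 439.5 in the macrophage libraries and 369.5, 639 and 806 in the islet libraries. For both genes the groups overlapped, and the adjusted p was 0.144 and 0.199. Markers used for both polarised states were thus high in the same libraries, with Tnf and Il12b on one side and Mrc1 and Il10 on the other. Arg1 passed as higher with quantile normalization (1.26, limma adjusted p = 0.0296). Nos2, tested through islet libraries only, was lower.

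Lipid genes split. Of 16 listed, 15 were tested, 5 of them through macrophage libraries only. There were 11 higher, 1 lower and 3 that did not pass, beside 24.7% higher and 31.3% lower among all tested genes. Apoe, a lipoprotein component secreted by macrophages, read 44737, 27066 and 26889.5 in the macrophage libraries and 3321, 566 and 772 in the islet libraries (4.82 ± 0.58 SE), and Trem2, a lipid-sensing receptor, differed by 4.73 ± 0.43 SE. Fabp4, a fatty acid binding protein of fat, endothelial cells and some macrophages, read 102, 50.8 and 30.2 in the macrophage libraries and 5305, 8399 and 6438 in the islet libraries (log2 difference -6.90, SE 0.43, limma adjusted p = 3.04e-06). It was low in each macrophage library, and its mean in sorted endothelial cells was 9663. Fabp4 reached the filter level in islet libraries only, which fixed its direction. Lpl, a lipase of lipoproteins, overlapped between groups with 7664, 9279 and 5125 in the macrophage libraries and 5170.1, 9751 and 7634 in the islet libraries. Pparg, which read 779.6, 714 and 1044 in the macrophage libraries and 765, 947 and 692 in the islet libraries, and Nr1h3 also did not pass. Of 11 genes of prostaglandin and leukotriene synthesis, 9 were tested, 1 of them through macrophage libraries only, and 7 were higher. Besides Ptgs2 these included Tbxas1, the thromboxane synthase, at 13584, 11985 and 12705 in the macrophage libraries and 477, 217 and 339.7 in the islet libraries (5.28 ± 0.28 SE).

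Secreted growth factors went in both directions. Of 30 listed, 22 were tested, with 6 higher, 11 lower and 5 not called, beside 24.7% higher and 31.3% lower among all tested genes, and the median was -1.04. Of the 22, 3 reached the filter level in macrophage libraries only and 4 in islet libraries only. Vegfa, which encodes the mouse form of the growth factor that the transgene supplies, read 210.4, 216 and 221 in the macrophage libraries and 1579.6, 2085 and 2418 in the islet libraries (log2 difference -3.21, SE 0.25, limma adjusted p = 1.03e-05). The mean of Vegfa in islets without Dox was 3967. Whether reads of the transgene count towards this gene is not stated in the labels. Igf1, a growth factor made by macrophages and other cells, read 8942, 8814 and 9194 in the macrophage libraries and 5979.8, 13403 and 12041 in the islet libraries and did not pass (-0.14 ± 0.30 SE, adjusted p = 0.716), with islet replicate 1 below and replicates 2 and 3 above every macrophage library. Without islet replicate 1, Igf1 passed as lower in macrophages (-0.500, limma adjusted p = 0.00908). Igf1 in sorted endothelial cells had a mean of 9167. The 6 higher genes were Gdf15, Osm, Grn, Tgfb1, Hgf and Pdgfc. Tgfb1, the gene of transforming growth factor beta 1, read 3112, 2635 and 3057 in the macrophage libraries and 1229.9, 463 and 358 in the islet libraries (2.31 ± 0.41 SE). Osm, an interleukin 6 family cytokine, read 1208, 1328 and 1044 in the macrophage libraries and 31.9, 31.8 and 24.1 in the islet libraries (5.31 ± 0.35 SE). Hgf, the hepatocyte growth factor, read 1764, 1664 and 1579.6 in the macrophage libraries and 240.1, 425 and 584 in the islet libraries (2.09 ± 0.33 SE). Among the lower genes, Fgf1 read 42.9, 46.8 and 48.4 in the macrophage libraries and 4784, 7878 and 7607 in the islet libraries and Ctgf 122, 75.7 and 215 in the macrophage libraries and 5885, 8063 and 7222 in the islet libraries.

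Matrix proteases were mixed. Of 20 proteases and inhibitors, 14 were tested, with 6 higher, 3 lower and 5 not called. Among all tested genes 24.7% were higher and 31.3% lower. Of the 14, 1 reached the filter level in macrophage libraries only and 1 in islet libraries only. Mmp13, a collagenase, had means of 14776 in macrophages and 328 in islets (5.54 ± 0.30 SE). Mmp12, the macrophage elastase, read 13772, 10927 and 6817 in the macrophage libraries and 931, 997 and 1099.5 in the islet libraries (3.32 ± 0.27 SE). Both were separate between the groups, and macrophage replicate 3 was the lowest of the macrophage libraries. The lower genes were Timp3, Adamts1 and Adamts4, with differences of -5.82, -5.42 and -4.78. Timp3, an inhibitor of metalloproteases held in the matrix, had a mean of 72101 in sorted endothelial cells.

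Each islet mean was also read as a percentage of the macrophage mean, since whole islets contain macrophages of their own. For the core list this percentage had a median of 4.80%, and 22 of 23 genes lay between 2.74% (Cd14) and 7.47% (Cd53); Mertk was at 26.6%. Emr1, Itgam and Csf1r stood at 5.7%, 5.64% and 3.84%. These percentages were taken only over tested genes whose macrophage mean reached the filter level. That choice keeps members that are high in macrophages, leaves out Nos2, Cxcl12 and Cx3cl1, and lowers a median, so the medians are given with no comparison between lists. The median was 2.11% for the proinflammatory list, 2.83% for chemokines, 13.3% for lysosomal genes and 13.6% for immediate early and stress genes. Several genes fell below the whole range of the core list: Ifnb1 at 0.0384% (with islet replicates 2 and 3 at the floor), Tnf at 0.326%, Clec4e at 0.366%, Cxcl2 at 0.426%, Ccl4 at 0.638%, Nlrp3 at 0.742%, Il10 at 0.786%, Cd86 at 1.1% and Cd83 at 1.35%. These transcripts were thus lower relative to Csf1r in whole islets than in the sorted cells.

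**Figure D3:**
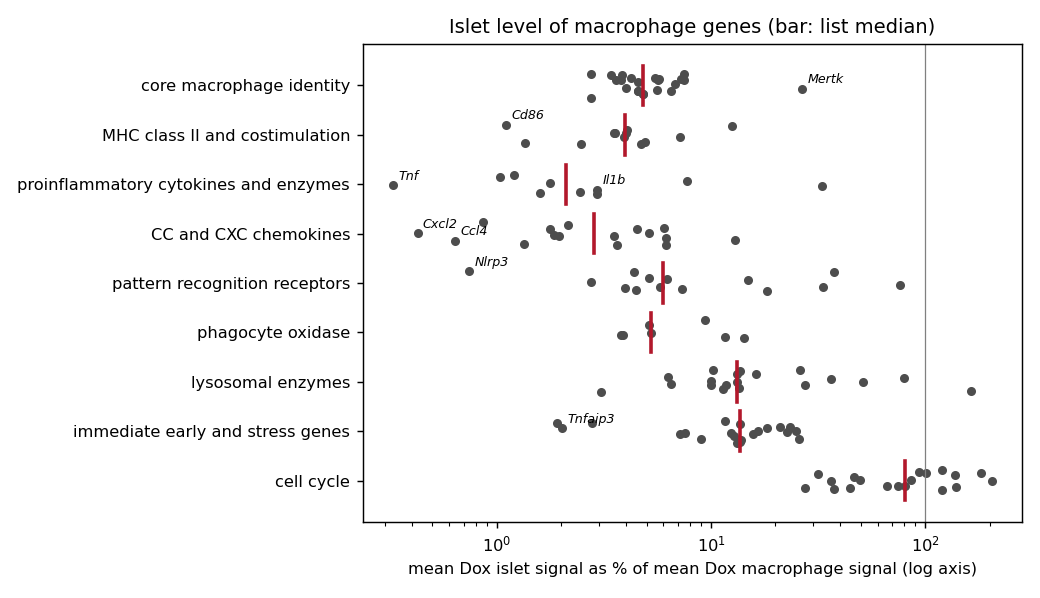
Mean Dox islet signal as a percentage of the mean Dox macrophage signal (log axis) for each tested gene of 9 lists whose macrophage mean reached the filter level, with list medians as red bars. The core genes cluster near 4.80%, Tnf and Cxcl2 lie below 1%, and cell cycle genes lie on both sides of 100%.

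This was tested gene by gene in a fit added after these values were seen, in which each library's mean log2 value over the 23 core genes was subtracted first. That mean was 4.38 higher in macrophages than in islets on the log2 scale. A difference above 0 in this fit means that a gene was further apart between the groups than the core genes. Of the 10707 genes, 94 passed above (0.878%) and 10105 below (94.4%). The genes named next had already been seen to have large differences in the same libraries, so their excess is a description and no independent test. Tnf exceeded the core difference by 4.06 ± 0.41 SE, Cxcl2 by 3.58 ± 0.31 SE, Ccl4 by 3.10 ± 0.41 SE, Nlrp3 by 2.83 ± 0.38 SE, Il10 by 2.73 ± 0.40 SE and Cd86 by 2.12 ± 0.33 SE. Of these, Tnf and Il10 reached the filter level in macrophage libraries only. Since many cytokine genes were tested only through their macrophage values, the following counts are a description too. The count above included 6 of 11 proinflammatory genes, 8 of 18 chemokines, 3 of 12 MHC class II and costimulation genes and 3 of 21 immediate early genes. In the same order, 2, 3, 1 and 15 genes of these lists passed below. Il1b, at 0.78 ± 0.35 SE, did not pass, nor did Mrc1 at 0.12 ± 0.35 SE, while Cd163, at -1.60 ± 0.47 SE, passed below. With Csf1r alone as the reference, 60 genes passed above in place of 94. Among named genes, Atf3, Ccr7, Cd14, Cxcl10, Osm, Spic, Tbxas1, Tnfaip3 and Tyrobp then no longer passed above. All of these except Cxcl10 also failed to pass in some fit with a library left out. Without islet replicate 1, in which 14 of the 23 core genes had their highest islet value, 140 genes passed above; without macrophage replicate 3 the count was 64.

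Motif letters were then counted over promoter windows of 300 bases, from 250 before to 50 after each start, for the 8490 of 10707 tested genes that entered the count. A match on either strand counted. The PU.1 letters GAGGAAGT stood in 5.59% of the 2757 windows of genes higher in macrophages, 2.50% of the 3442 windows of lower genes, 2.70% of those of genes not called and 3.20% of all 32851 windows. The NF-kB letters (GGG, any 2 bases, TTTCC) stood in 2.39%, 1.42% and 1.63% of the higher, lower and all windows, and in 6 of the 73 windows of genes above the core difference (8.22%). Both were thus more frequent in windows of higher genes than of lower genes, as a description with no test. The same held for the AP-1 and interferon response letters given next. The AP-1 letters TGANTCA stood in 7.07% of higher, 5.46% of lower and 7.81% of all windows. The interferon response letters (TTTC, any 2 bases, TTTC) stood in 4.68%, 2.32% and 3.44%. For TGTTTAC (FOXA), TGCTGAC (MAF), CAGATG (the E-box bound by NEUROD1) and GGGCGG (SP1) the shares of higher and lower windows were 2.76 and 2.67%, 4.10 and 4.10%, 13.5 and 12.7%, and 58.1 and 59.6%. In the 73 windows of genes above the core difference, PU.1, AP-1 and interferon response letters stood in 6.85, 17.8 and 4.11%. FOXA, MAF, CAGATG and SP1 letters stood there in 4.11, 2.74, 21.9 and 24.7%. In windows of all tested genes, PU.1, NF-kB, AP-1 and interferon response letters stood in 3.36, 1.62, 5.44 and 3.29%, and CAGATG and SP1 letters in 11.8 and 61.4%. The symmetric NF-kB letters (GGGA, any 2 bases, TTCC) share some sites with the other NF-kB form. They were searched after Ifnb1 had been seen and stood in 2.10% of higher and 1.22% of lower windows.

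Immediate early and stress genes were also higher. All 21 of 21 were tested and higher in macrophages, beside 24.7% of all tested genes, with a median of 3.02. In the fit relative to core genes, 15 of the 21 were below the core difference and 3 above it. The list held 2.41 to 2.84% of the macrophage signal against 0.246 to 0.389% of the islet signal. The mean shares differed by 2.293 percentage points, and by 1.308 with the 10 highest genes of each library left out. Of the 21, 3 reached the filter level in macrophage libraries only. Egr1, a transcription factor induced within minutes of a stimulus, read 79444, 105527 and 101878 in the macrophage libraries and 14511, 21499.5 and 16324 in the islet libraries (log2 difference 2.46, SE 0.26, limma adjusted p = 5.15e-05). Dusp1, a phosphatase induced by stress, read 63666, 74760.0 and 92661 in the macrophage libraries and 11614, 10459.5 and 9503 in the islet libraries (2.86 ± 0.23 SE), and Atf3, a stress-induced transcription factor, read 41488, 46002 and 49851 in the macrophage libraries and 2171, 948 and 709 in the islet libraries (5.33 ± 0.37 SE). Tnfaip3, the gene of the NF-kB feedback inhibitor A20, read 93319.9, 108682 and 133848 in the macrophage libraries and 2307, 2594 and 1866 in the islet libraries (5.63 ± 0.23 SE). The macrophages were dispersed and sorted before lysis and the whole islets were not, so the cell type and the handling cannot be told apart for these genes. Sorted endothelial cells, which were handled in the same way, had means of 21142 for Egr1, 20263 for Dusp1, 10997 for Fos and 3675 for Tnfaip3, and the list held 0.466 to 0.498% of their signal. Macrophage means of Fos and Egr1 were 33431 and 95616. The 3 fractions are given side by side here, with no test of endothelial cells. Tnf, Cxcl2 and Ifnb1 had endothelial means of 2.72, 51.6 and 2.68. The part of handling in the rise of cytokine genes was not tested.

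The genes that interferon beta is known to induce were mostly higher too. Of 15 interferon-stimulated genes, Ifnb1 included, 15 were tested, with 11 higher, 1 lower and 3 not called. The shares among all tested genes were 24.7% higher and 31.3% lower. Of the 15, 5 reached the filter level in macrophage libraries only. Mx1 read 2243, 3117 and 3599.5 in the macrophage libraries and 92.1, 67.3 and 111 in the islet libraries (5.04 ± 0.31 SE) and Isg15 743, 813 and 670.0 in the macrophage libraries and 65.4, 14.1 and 5.41 in the islet libraries (5.32 ± 0.78 SE). Ifit1, an RNA-binding antiviral protein, differed by 2.53 ± 0.49 SE. Usp18, which dampens interferon signalling, and Rsad2 overlapped between groups, at 563, 836 and 596 in the macrophage libraries and 418, 523 and 638 in the islet libraries for Usp18 and 4842, 8418 and 13329 in the macrophage libraries and 2796, 5399 and 4606 in the islet libraries for Rsad2. Rsad2 (0.99 ± 0.38 SE, adjusted p = 0.0534) passed as higher with the GC trend removed (1.37, 0.0072), the library number series as a term (0.00297), quantile normalization (0.03), median ratio rescaling (0.0345), added constants of 10 and 50 (0.0499 and 0.0462), all 4 groups in the fit (0.026) and without macrophage replicate 1 (0.013). Ifi44 was lower in macrophages, at 497, 566 and 435 in the macrophage libraries and 940.3, 4126 and 2605 in the islet libraries (-2.12 ± 0.47 SE). The list ran from -2.12 to 10.35, with a median of 2.38.

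Endocrine genes were mostly low in the macrophage libraries, and few of those listed were at the floor in all 3 of them. These were 1 of 24 beta cell genes, 3 of 14 genes of other endocrine cells and 1 of 15 hormone processing and granule genes. Of 24 beta cell genes, 21 were tested and 21 were lower, with a median of -5.82; 31.3% of all tested genes were lower. Of the 21, 13 reached the filter level in islet libraries only and so had to be lower or near it, while 8 reached it in both groups. Ins2, an insulin gene, read 2106, 1038 and 1094 in the macrophage libraries and 40358, 47754 and 41804 in the islet libraries (log2 difference -5.01, SE 0.28, limma adjusted p = 1.97e-06). Iapp, the islet amyloid peptide secreted with insulin, read 1906, 1015 and 664 in the macrophage libraries and 55317, 94249 and 86252 in the islet libraries (-6.14 ± 0.38 SE). Ins1 and Ins2 are near-identical copies, and the labels do not state how reads were divided between them. Nkx6-1, a transcription factor of beta cells, was at or near the floor in macrophage replicates 2 and 3, with 54.7, 2.75 and 1 in the macrophage libraries and 1544, 1819 and 1747 in the islet libraries (-7.83 ± 1.07 SE, and -9.28 without macrophage replicate 1). Slc2a2, the glucose transporter of beta cells, read 20.9, 17.4 and 33.2 in the macrophage libraries and 2249, 4735 and 4923 in the islet libraries (-7.29 ± 0.42 SE). The list held 0.0304 to 0.0451% of the macrophage signal, 1.06 to 1.16% of the islet signal and 0.0066 to 0.0086% of the signal of sorted endothelial cells. Insulin RNA was therefore still measured in the sorted macrophages, with Ins2 at 3.26% of its islet mean and Iapp at 1.52%.

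Of 14 genes of other endocrine cells, 10 were tested, with 8 lower, 1 higher and 1 not called. The shares among all tested genes were 31.3% lower and 24.7% higher. Gcg, the glucagon gene of alpha cells, read 3091, 1227 and 11441 in the macrophage libraries and 114499, 182793 and 152817 in the islet libraries (log2 difference -5.39, SE 0.68, limma adjusted p = 0.000143). Macrophage replicate 3 was the highest of the macrophage libraries for Gcg, and its list share of 0.0721% exceeded those of replicates 1 and 2, 0.0331 and 0.0206%. Ghrl, the ghrelin gene, was higher in macrophages, at 345, 384 and 311 in the macrophage libraries and 156, 183 and 205 in the islet libraries (0.93 ± 0.32 SE, adjusted p = 0.0336). Ghrl did not pass without macrophage replicate 1 or 2 or islet replicate 2 or 3 (adjusted p = 0.0574 to 0.131), nor with the GC trend removed (0.502, 0.246). Hhex, a delta cell factor also known in blood cells, overlapped between groups, at 1556, 2013 and 1101 in the macrophage libraries and 588, 1995 and 1190.3 in the islet libraries. Of 15 hormone processing and granule genes 13 were tested and 13 were lower, and of 15 exocytosis genes 12 were tested and 11 were lower. Of the tested genes, 3 of the granule list and 6 of the exocytosis list reached the filter level in islet libraries only. Chga, the gene of the granule protein chromogranin A, read 663, 241 and 524 in the macrophage libraries and 26200.0, 14022 and 14277 in the islet libraries (-5.31 ± 0.40 SE). Unc13a, which primes vesicles, did not pass, at 300.2, 237 and 285 in the macrophage libraries and 623, 327 and 298 in the islet libraries, but passed as lower with the GC trend removed (-1.006, limma adjusted p = 0.0102).

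The 12 largest falls by the same rule were Vip, Kcnj15, Tmem132b, Enpp6, Nkx6-1, Syt4, Arhgef15, 6230409E13Rik, G6pc2, Clec14a, Nov and Neurod1. All 12 reached the filter level in islet libraries only, so the filter fixed their direction and the separation of their groups. Vip (mm9 chr10:4698927-4707323), a neuropeptide gene, read 3.06, 1 and 1 in the macrophage libraries and 827, 2109 and 3365 in the islet libraries (log2 difference -9.48, SE 0.66, limma adjusted p = 5.42e-06). Kcnj15 (chr16:95479165-95521867), a potassium channel gene, read 1, 2.75 and 1 in the macrophage libraries and 568, 2196 and 1739.5 in the islet libraries (log2 difference -9.04, SE 0.68, limma adjusted p = 7.63e-06). Both were at the floor in 2 macrophage libraries, so these differences depend on the added 1. G6pc2, an islet glucose-6-phosphatase, read 96.3, 38.4 and 54.4 in the macrophage libraries and 7066, 14226 and 10759 in the islet libraries (-7.43 ± 0.39 SE). Neurod1, a transcription factor of endocrine cells, read 11.4, 2.75 and 72.5 in the macrophage libraries and 1392, 2987 and 3323 in the islet libraries (-7.31 ± 0.95 SE), and its interval overlaps that of another gene on the same strand. Its difference was -6.31 without macrophage replicate 2 and -8.46 without macrophage replicate 3. Endothelial and endocrine genes were mixed in this group: Arhgef15, Enpp6, Clec14a and Nov had means of 7339, 2749, 18769.9 and 3337 in sorted endothelial cells, whereas G6pc2, Neurod1 and Nkx6-1 had 18.4, 2.02 and 1.35.

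The tested vascular and stromal genes were lower. Of 18 endothelial genes, 16 were tested and 16 were lower, beside 31.3% of all tested genes, with a median of -6.05. Of these 16, 9 reached the filter level in islet libraries only, which fixes their direction, and 7 in both groups. Kdr, the main signalling receptor of VEGF-A, read 373, 288 and 270.2 in the macrophage libraries and 20870.4, 24264 and 18706 in the islet libraries (log2 difference -6.10, SE 0.21, limma adjusted p = 8.56e-07). Flt1, a VEGF-A receptor that also occurs on some myeloid cells, read 661, 501 and 524 in the macrophage libraries and 34727, 55235 and 43138 in the islet libraries (-6.29 ± 0.23 SE). Pecam1, the gene of the CD31 antigen, read 772, 738 and 739.6 in the macrophage libraries and 20909, 29991 and 21909 in the islet libraries (-4.995 ± 0.20 SE). The list held 0.0145 to 0.0207% of the macrophage signal and 0.924 to 1.06% of the islet signal. Of 12 pericyte and smooth muscle genes 11 were tested and 11 were lower, and of 16 fibroblast and matrix genes 16 were tested and 16 were lower. Among these, 4 pericyte and 5 matrix genes reached the filter level in islet libraries only. Rgs5, a pericyte gene, read 3051, 3498 and 12399 in the macrophage libraries and 170137, 400951 and 299475 in the islet libraries (-5.75 ± 0.54 SE). Col3a1, a fibrillar collagen, read 714, 696 and 2052 in the macrophage libraries and 19361, 57443 and 34726 in the islet libraries (-5.07 ± 0.49 SE). For both genes macrophage replicate 3 was the highest of the macrophage libraries, as for Gcg.

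Acinar genes overlapped between the groups. Of 20 genes for digestive enzymes and acinar regulators, 18 were tested and 1 was lower, with the other 17 not called and a median of -3.09. Among all tested genes 31.3% were lower. Without macrophage replicate 2 all 18 were lower by limma's test. Cpb1, a pancreatic carboxypeptidase, read 6029, 113396 and 115 in the macrophage libraries and 32577, 37882 and 99985 in the islet libraries (log2 difference -3.54, SE 1.99, limma adjusted p = 0.16). Macrophage replicate 2 was above every islet library and macrophage replicate 3 was below every one. Without macrophage replicate 2 the difference of Cpb1 was -5.90 with an adjusted p of 0.00498 (limma), and without macrophage replicate 3 it was -0.93 with 0.525. The list held 0.151, 2.30 and 0.0072% of the signal of macrophage replicates 1, 2 and 3, and 0.930, 0.540 and 1.78% of that of the islet replicates. In sorted endothelial cells it held 0.0304, 0.653 and 0.0019%, so that replicate 2 was again the highest. Overlap was found for all 18 tested genes. The called gene, Bhlha15, a regulator of secretory cells, read 29.4, 204 and 6.05 in the macrophage libraries and 276, 199.6 and 264 in the islet libraries (adjusted p = 0.0475). It did not pass when any 1 of the libraries other than macrophage replicate 2 was left out (adjusted p = 0.0876 to 0.119), nor with quantile normalization (0.0977) or median ratio rescaling (0.0544). The mean share in macrophages minus that in islets was -0.265 percentage points, and it was -1.004 without macrophage replicate 2, 0.068 without macrophage replicate 1, 0.140 without macrophage replicate 3 and 0.083 without islet replicate 3. The part of exocrine RNA in other results was not tested.

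**Figure D4:**
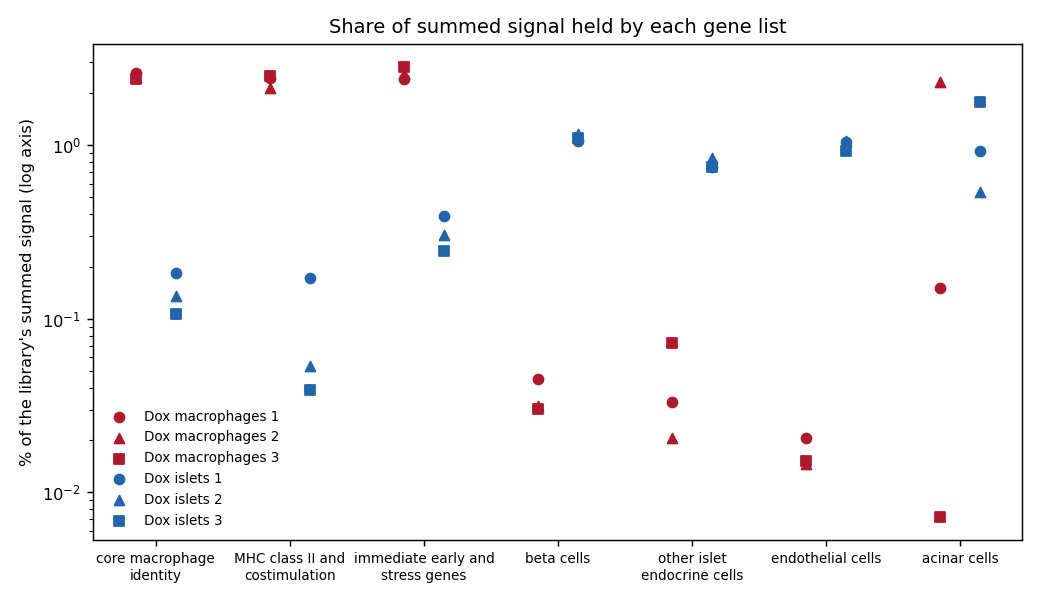
Share of each library's summed signal (log axis, in %) held by 7 gene lists, with a symbol for each replicate. Macrophage (red) and islet (blue) libraries are separate for 6 lists and overlap for acinar genes, where macrophage replicate 2 holds 2.30% and macrophage replicate 3 holds 0.0072%.

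Markers of other blood cells bear on what a CD11b gate collects, since neutrophils, monocytes, some dendritic cells and natural killer cells also carry CD11b. For the counts that follow, 24.7% of all tested genes were higher and 31.3% lower. Of 13 neutrophil genes, 3 were tested and 3 were higher, and all 3 reached the filter level in macrophage libraries only. S100a8 read 209.8, 259.7 and 224 in the macrophage libraries and 6.11, 5.26 and 6.76 in the islet libraries (5.04 ± 0.57 SE) and Cxcr2 differed by 5.21 ± 0.69 SE, while Ly6g, a defining marker of mouse neutrophils, was at 1.64, 1 and 1 in the macrophage libraries. The neutrophil list held 0.0176 to 0.0218% of the macrophage signal and 0.00063 to 0.0015% of the islet signal. Of 10 monocyte genes tested, 4 of them through macrophage libraries only, 6 were higher and 4 lower; the higher ones included F13a1 (5519.8, 4606 and 6716 in the macrophage libraries and 246, 178 and 267 in the islet libraries). Ly6c1 was the lowest, at 62.2, 19.2 and 24.1 in the macrophage libraries and 1913, 1836 and 2374 in the islet libraries, with a mean of 5829 in endothelial cells. It reached the filter level in islet libraries only, which fixed its direction. Of 12 dendritic cell genes tested, 6 of them through macrophage libraries only, 8 were higher, 2 lower and 2 not called. Flt3, a receptor of dendritic cell precursors, read 1799, 1946 and 1482 in the macrophage libraries and 69.4, 51.6 and 90.4 in the islet libraries (4.63 ± 0.32 SE), and Cd209a, a lectin of monocyte-derived dendritic cells, differed by 3.60 ± 0.27 SE. Zbtb46, a factor of conventional dendritic cells that endothelium also expresses, was lower, at 1356, 1833 and 1999.9 in the macrophage libraries and 3240.0, 3067 and 4077 in the islet libraries (-1.01 ± 0.22 SE), with an endothelial mean of 7124. Clec9a, a receptor of cross-presenting dendritic cells, was lower as well (-1.34 ± 0.22 SE). Of 15 genes of T, NK and B cells, 2 were tested, both through macrophage libraries only, so that their direction was set by the filter: Cd4 (3.29 ± 0.47 SE), which macrophages of some tissues express, and Cd79b (3.42 ± 0.52 SE). Cd3e, a defining T cell gene, was at 3.26, 5.42 and 12.1 in the macrophage libraries. The single mast cell gene tested, Kit, was lower (-0.95 ± 0.31 SE). It did not pass without macrophage replicate 1 (adjusted p = 0.113), islet replicate 2 (0.0973) or islet replicate 3 (0.0587), nor with median ratio rescaling (0.055) or all 4 groups in the fit (0.073). Its mean in endothelial cells was 3576, and Cpa3, a mast cell protease, was at 9.77, 2.70 and 30.2 in the macrophage libraries. The part of these cells in the results was not tested.

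Genes common to all cells had medians nearer to 0. Of 20 cell cycle genes, 19 were tested, with 6 higher and 13 not called, and a median of 0.50. Among all tested genes 24.7% were higher and 31.3% lower. The share of cell cycle genes called higher was near the background, as was that of the 17 endoplasmic reticulum folding genes. The shares called lower were below the background, with no cell cycle gene and 3 of the 17 folding genes. The 6 cell cycle genes called higher became 3 without macrophage replicate 2 or islet replicate 3 and 4 without macrophage replicate 1. Without islet replicate 1, 2 cell cycle genes were called lower. Pcna, a clamp of DNA replication, read 4686, 4884 and 4462 in the macrophage libraries and 1085, 2151 and 1200.0 in the islet libraries (1.73 ± 0.27 SE), and Mcm5, a replication licensing factor, differed by 1.87 ± 0.39 SE. Ccna2, a mitotic cyclin, overlapped between groups, at 1329.6, 1258 and 828 in the macrophage libraries and 1314, 3404 and 1528 in the islet libraries, and passed as lower without islet replicate 1 (-1.03, 0.0334). Of 17 endoplasmic reticulum folding genes, 4 were higher, 3 lower and 10 not called. The number lower was 7 without islet replicate 1, 2 without macrophage replicate 1, and 1 without macrophage replicate 3, islet replicate 2 or islet replicate 3. Hspa5, the main chaperone of that compartment, read 32747, 34352 and 29580.3 in the macrophage libraries and 13793, 21476 and 14235 in the islet libraries (0.99 ± 0.24 SE), and Ero1lb, an oxidase of pancreatic secretory cells, was lower (-2.72 ± 0.27 SE). Of 13 tested hypoxia and glycolysis genes, 5 were higher and 2 lower. Without islet replicate 1, 9 were higher, and without macrophage replicate 3, islet replicate 2 or islet replicate 3 only 1 was lower. Hk2, the inducible hexokinase, stood apart from the rest of this list with 4441, 4482 and 5549 in the macrophage libraries and 112, 122 and 80.3 in the islet libraries (log2 difference 5.53, SE 0.26, limma adjusted p = 1.05e-06). It alone of the 13 reached the filter level in macrophage libraries only, which fixed its direction. Of 12 housekeeping genes, 11 were tested, with 4 higher, 1 lower and 6 not called. Without islet replicate 1, 4 were lower, and Tbp, the lower one, did not pass without macrophage replicate 1 or 3 or islet replicate 3, nor with the GC trend removed (-0.350, 0.25). Actb, the cytoplasmic actin, read 75122, 73524 and 70771 in the macrophage libraries and 38432, 27570.4 and 18223 in the islet libraries (1.45 ± 0.31 SE), and Hprt overlapped between groups, at 3607, 4063 and 3433 in the macrophage libraries and 2891, 8477 and 7117 in the islet libraries, and passed as lower without islet replicate 1 (-1.07, limma adjusted p = 0.000435).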

How the data were processed

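RNA was measured by sequencing after amplification, in whole islets and in cells sorted from islets. The authors deposited 1 table of normalized signal with a floor of 1; the submitters' processing notes name TopHat2 2.0 and build mm9, and neither they nor the labels describe the normalization, the counting or its use of strand. Whole reads could not be recovered from the deposited signal, so read depth is unknown and no count test was run. Of 22793 entries, 25 symbols turned into dates were restored, and 76 symbols with several entries kept the one with the highest mean, which left 22711 genes.

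Genes with a signal of at least 182.37 (the 40th percentile of values above the floor) in 3 of the 6 libraries were tested with limma 3.58.1 in R 4.3.3 on log2(signal + 1), with a trend of variance on level and Benjamini-Hochberg adjustment at 0.05. Fold changes on this scale understate low genes. On simulated data with 200 of 10707 genes changed, the fit recovered 22.4% of genes changed by 1 log2 unit, 65.3% by 2 and 93.4% by 4. It made 6 false calls. In the measured data 56.0% of tested genes passed, so these rates need not hold for them. Alternatives were other filters, added constants of 10 and 50, quantile and median ratio scaling, a GC trend, all 4 groups in 1 fit, a replicate block, a minimum log2 difference of 1, summed entries and each library left out. A term for the library number series, the filter taken over all values, the reference to core genes with its alternatives, the settings of islet percentages and motif shares, and list counts with a library left out were added after the data were seen. Promoter windows came from RefSeq tables of GRCm38.p6, and gene coordinates are those of the deposited table.

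The gene lists and tests were chosen with earlier results of these data known. Named genes were the markers Itgam, Emr1, Tyrobp and C1qa; the 12 largest differences in each direction as stated in the text; of each list the 4 largest called differences in each direction, the most abundant member, and those not called or called in a direction where they were 5 or fewer; and Vegfa. The following lie outside this rule and were chosen after their values were seen: Bhlhe40, C1qc, Ccl2, Ccl22, Ccna2, Cd163, Cd209a, Cd3e, Cd40, Cd53, Chga, Col3a1, Cpa3, Cx3cr1, Cxcl1, Cxcl10, Cxcr4, Dusp1, Egr1, Flt1, Flt3, Fos, H2-Aa, Hgf, Hprt, Ifit1, Il6, Ins1, Ins2, Irf5, Kdr, Ly6g, Mertk, Pdgfc, Slc40a1 and Tlr4.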

Additional observations from a re-analysis of the deposited data

How the results depend on the processing

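The counts of 2645 genes higher and 3348 lower stayed within 1.5 times under most alternatives. Exceptions were the filter at the 75th percentile, with fewer genes tested (1589 higher, 1538 lower), and a test against a minimum log2 difference of 1 (1294 higher, 1878 lower). Leaving out each library gave 2087 to 3208 higher and 2773 to 3948 lower. The replicate numbers were taken as names of the libraries and not as pairs. Deviations of same-numbered macrophage and islet libraries correlated at 0.211, 0.0922 and 0.0453. Pairing of macrophage and endothelial libraries was not tested. With a replicate block 2802 genes were higher and 3512 lower. Among named genes the block made Nr1h3 and Rsad2 pass as higher (limma adjusted p = 0.0377 and 0.00454) and Ccna2 as lower (0.0414), Ghrl no longer passed (0.053), and no other call changed. With Csf1r alone as the reference, 60 genes exceeded the core difference, and leaving out libraries gave 64 to 140. The median islet percentage of the proinflammatory list was 1.61 with quantile normalization, 1.92 with median ratio rescaling and 1.79 to 2.26 with libraries left out; that of immediate early genes was 9.70 to 15.6 with libraries left out. The acinar share difference ran from -1.004 to 0.140 with libraries left out, and was 0.068 without macrophage replicate 1 and 0.083 without islet replicate 3. Among genes higher with a minimum log2 difference of 1, 7.55% of windows held GAGGAAGT. The cause of these shifts was not tested.

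Of the named genes, only ones that had not passed changed sign, and none passed with the changed sign. The log2 difference of Igf1 became 0.004 with median ratio rescaling, 0.297 with the GC trend removed, 0.082 and 0.005 without islet replicates 2 and 3, and 0.052 with the library number series as a term; the range with libraries left out was -0.500, where it passed as lower without islet replicate 1, to 0.082. That of Lpl became 0.115 and 0.387 with median ratio rescaling and the GC trend removed, 0.213 without macrophage replicate 3, 0.185 and 0.009 without islet replicates 2 and 3, and -0.272 without islet replicate 1. Pparg became -0.090 without macrophage replicate 3 and -0.029 without islet replicate 3, and ran up to 0.197. Hhex became -0.029 without islet replicate 1 and ran up to 0.851. Depth is unknown, so what a value at the floor of 1 allows cannot be given, and 3 libraries a group limit the precision of each value.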

Other observations

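Adhesion genes of leukocytes were mostly higher in macrophages. Of 15 listed, 14 were tested, with 11 higher, 2 lower and 1 not called, and a median log2 difference of 3.22. Among all tested genes 24.7% were higher and 31.3% lower. Of the 14, 4 reached the filter level in macrophage libraries only, which fixed their direction. Itgax, the gene of the integrin CD11c that dendritic cells and many macrophages carry, read 11323, 9733 and 6452 in the macrophage libraries and 565, 393 and 196 in the islet libraries (4.66 ± 0.39 SE). Itgal, a subunit of the integrin LFA-1, differed by 4.62 ± 0.32 SE, and Itgb1, the beta 1 integrin of many cell types, was lower (-1.48 ± 0.20 SE). The CD11b and CD11c genes were thus both high in the sorted fraction.

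Lists of minor islet components were small. Of 14 ductal and epithelial genes, 7 were tested, with 6 lower and 1, Krt7, not called. Of 8 Schwann cell and nerve genes, 4 were tested, with 3 lower and 1, Mbp, higher (1981, 1753 and 2221 in the macrophage libraries and 752, 436 and 719.8 in the islet libraries; 1.68 ± 0.27 SE). Of 7 red blood cell genes, 1 was tested and was lower, Hbb-b1, at 127, 92.2 and 150.4 in the macrophage libraries and 1479, 501 and 229 in the islet libraries. Beside these counts, 31.3% of all tested genes were lower. Of the tested genes, 4 ductal and epithelial genes, 3 Schwann cell and nerve genes and Hbb-b1 reached the filter level in islet libraries only, which fixed their direction. Islet replicate 1 differed from replicates 2 and 3 in several immune genes, but not in 1 direction. Apoe, C1qa and H2-Aa each had their highest islet value there, whereas Itgam and Cx3cr1 had their lowest. Of the 23 core genes, 14 were highest in islet replicate 1, 7 in replicate 2 and 2 in replicate 3.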
